A study of Homo sapiens with 12 samples.

Results

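HCC1187 is an established line of triple-negative breast cancer cells. The comparison described here is between HCC1187 cells transfected with sh-SOX9-AS1, a short hairpin RNA against the long non-coding RNA SOX9-AS1, and HCC1187 cells transfected with sh-LacZ, a hairpin against a bacterial gene that human cells lack. Its members are the 6 HCC1187 libraries, 3 per group, of the 12 in the series. They were chosen by their column names, which give the line and either CONTROL or BLANCO. The sample descriptions tie CONTROL to sh-LacZ and BLANCO to sh-SOX9-AS1, and the deposited phenotype table gives the same treatments. The word BLANCO is not explained in the labels. The other 6 libraries are MDA-MB-468 cells with the same pair of hairpins. Both HCC1187 groups were grown in RPMI-1640 with serum, transfected for 48 h, and sequenced as polyadenylated RNA in paired reads of 76 bp. The control libraries are called S7, S8 and S9 and the knockdown libraries S10, S11 and S12, after the number in each column name. No genotype other than the hairpin is given for these cells, and the labels name no clone or sort. Transfection reaches some cells and not others, so in these bulk libraries a smaller share of cells with a transcript and less of it per cell cannot be told apart. Separate cultures for the libraries of a group are not mentioned in the labels, so p-values measure only the spread between these libraries.

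A short hairpin RNA is cut by the cell into a small duplex, and 1 strand of it guides the silencing complex to matching transcripts, which are then cut or made unstable. Long matches lead to cutting of the target. A short match to the start of the guide, usually in a 3′ UTR, can be enough to lower a transcript as a microRNA does. SOX9-AS1 is transcribed from the strand opposite to SOX9, and SOX9 encodes a transcription factor known for progenitor and stem-like states in breast epithelium and for cartilage and gonad development. The series' title places the knockdown in a setting of metabolism, migration and invasion.

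Each library held between 6026376 and 10160040 counts over the 60675 genes of the table, counting lane 1 of 3 sequencing lanes. S10 and S11 were the shallowest libraries. Across genes, the correlation of S10 with the 3 controls was 0.973 to 0.980, that of S11 and S12 was 0.984 to 0.987, and libraries of the same group correlated at 0.988 to 0.994. No library was a copy of another. The labels call the cells basal-like, which KRT5, KRT14 and KRT6B did not bear out. Of 10 basal markers, these 3 keratin genes and TP63 were under 1 CPM (counts scaled to the size of the library) in all 6 libraries, while VIM averaged 1567 ± 112 CPM in the controls (SD, n = 3) and FOXC1 202 ± 9.83 CPM. The basal markers EGFR and CDH3 averaged 60.4 ± 2.87 and 21.1 ± 1.67 CPM in the controls. Of 10 luminal markers, ESR1, KRT19 and TFF1 were also under 1 CPM in all 6 libraries. Other luminal markers were expressed. In the controls KRT8 averaged 203 ± 4.61 CPM, XBP1 131 ± 13.4, KRT18 103 ± 1.67, GATA3 23.7 ± 1.57 and FOXA1 16.4 ± 2.23. The luminal markers summed to 466 to 501 CPM in the controls and 370 to 396 CPM in the knockdown. Of the epithelial markers, GRHL2 had no count, EPCAM averaged 5.49 ± 1.36 CPM and CDH1 10.5 ± 0.810 CPM. The epithelial markers summed to 19.8 to 22.4 CPM in the controls and 19.3 to 24.5 CPM in the knockdown. The fibroblast markers summed to more, 72.2 to 81.0 and 76.0 to 90.2 CPM. Among them COL1A1 averaged 52.7 ± 4.33 CPM and COL3A1 13.6 ± 2.19 CPM in the controls. The summed levels of leukocyte markers (2.53 to 3.63 and 3.08 to 4.15 CPM) and endothelial markers (1.13 to 2.14 and 2.47 to 4.35 CPM) were low. COL1A2, CLDN5, MS4A1 and CD3E were at 0 in all 6 libraries. The part of these markers in the results was not tested.

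SOX9-AS1 itself, a gene of chr17:72034107-72237203 on the minus strand (GRCh38), had 24, 13 and 17 counts in S7 to S9 and 8, 5 and 9 counts in S10 to S12, or 2.56, 1.56 and 1.92 CPM in S7 to S9 and 1.28, 0.771 and 0.869 CPM in S10 to S12. Every knockdown library was below every control, and 38.4% of all genes tested had no overlap of the groups. The log2 fold change was −1.08 ± 0.36 (adjusted p = 0.0349 from edgeR's quasi-likelihood test with Benjamini-Hochberg adjustment over 14970 genes, n = 3 per group). After ± stands the standard error of a log2 fold change or the SD of a level, and p-values below come from the same fit. SOX9 lies within the span of SOX9-AS1 on the other strand and had 15.4, 18.3 and 17.1 CPM in S7 to S9 and 13.2, 14.03 and 9.56 CPM in S10 to S12, a fall of 0.49 ± 0.16 on the log2 scale (adjusted p = 0.0256). Whether the counting used strand is not stated in what was used here. Reads of SOX9 and SOX9-AS1 may therefore have been mixed. The same holds for 91 of the 153 genes named with values here, which overlap an annotated gene on the other strand, among them CCN2, TMEM263, MORF4L1, ATP1B1, MST1 and COX4I1. Both calls rest on few counts. The adjusted p of SOX9-AS1 was 0.168 without S7, 0.0701 without S9, 0.0892 without S11 and 0.136 without S12, and that of SOX9 was 0.0992 without S8, 0.0714 without S9 and 0.204 without S12.

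Other SOX factors were lower as well. Of 10 tested members of the SOX family, 6 fell and 0 rose, where 13.1% of all 14970 genes tested fell and 9.78% rose. SOX4, a factor of progenitor cells and of TGF-beta responses, had 258, 326 and 299.9 CPM in S7 to S9 and 122, 151 and 141 CPM in S10 to S12, and the groups did not overlap, as held for 38.4% of all genes tested. Its log2 fold change was −1.10 ± 0.10 (adjusted p = 6.03e-08), the largest fall among the 10. SOX8, which belongs to the same subgroup as SOX9, had 14.9, 15.04 and 13.2 CPM in S7 to S9 and 10.8, 7.40 and 8.11 CPM in S10 to S12 (−0.72 ± 0.16, adjusted p = 0.00252). SOX5, SOX6 and SOX13, which form the SOXD subgroup and lack a transactivation domain, had log2 fold changes of −0.61 ± 0.22, −0.55 ± 0.17 and −0.38 ± 0.13, with levels under 30 CPM in every library. Those 3 calls are weak. SOX6 was lost without S8 (adjusted p = 0.124) and without S12 (0.0775). SOX5 and SOX13 were lost with library totals as the only scaling (adjusted p = 0.0731 and 0.0747), with DESeq2 (0.104 and 0.0568), without S7 (0.174 and 0.0931), without S9 (0.0606 and 0.14) and without S11 (0.153 and 0.108). SOX5 was also lost without S8 (0.0702) and without S12 (0.113). Without S8, S9 or S12, 3 of the 10 fell, and 2 fell when all 12 libraries of both lines were fitted together. SOX2, SOX12, SOX18 and SOX21 did not pass, with log2 fold changes of 0.04, −0.09, −0.44 and 0.18.

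Across the 14970 genes tested, 3418 (22.8%) passed at an adjusted p under 0.05. The falls, 1954 genes, were more often found at high expression and in long genes. The rises, 1464 genes, were more often found in short genes. Genes were split into 5 classes by average level. In the highest class of 2994 genes, 701 fell and 231 rose. In the lowest class of 2994 genes, 87 fell and 260 rose. Rises were most frequent in the middle class, with 357 of 2994 genes. By the gene length in the deposited table, 568 of the longest 2994 genes fell and 240 rose, against 165 and 349 of the shortest 2995. Protein-coding genes numbered 12889, of which 1874 fell and 1198 rose, with a median log2 fold change of −0.00088. The 1488 lncRNA genes leaned to rises, with 214 rises, 58 falls and a median of 0.22. A change of at least 2-fold in genes that passed was found for 195 rises and 131 falls, and 103 of those rises were lncRNA genes. The median of all genes was 0.01, and it was 0.07 with library totals as the only scaling. That scaling called 57.4% of the passing genes as rises, against 42.8% with TMM. Small rises of whole groups therefore depend on the scaling. In a fit of all 12 libraries, which shares 1 estimate of spread with MDA-MB-468, 1499 genes passed, and 28 of the genes named below did not: NR4A1, JUN, JUNB, CREB1, AMOTL1, AMOTL2, AJUBA, SPRY1, SPRY4, ID1, MYC, RND3, TIMP2, CDK6, BCL2, MSMO1, ACADS, SLC38A2, DDIT4, DNAH17, H2AC6, NDUFC2, SOX5, SOX6, SOX9, SOX13, ZNNT1 and N4BP2L2-IT2.

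**Figure D1:**
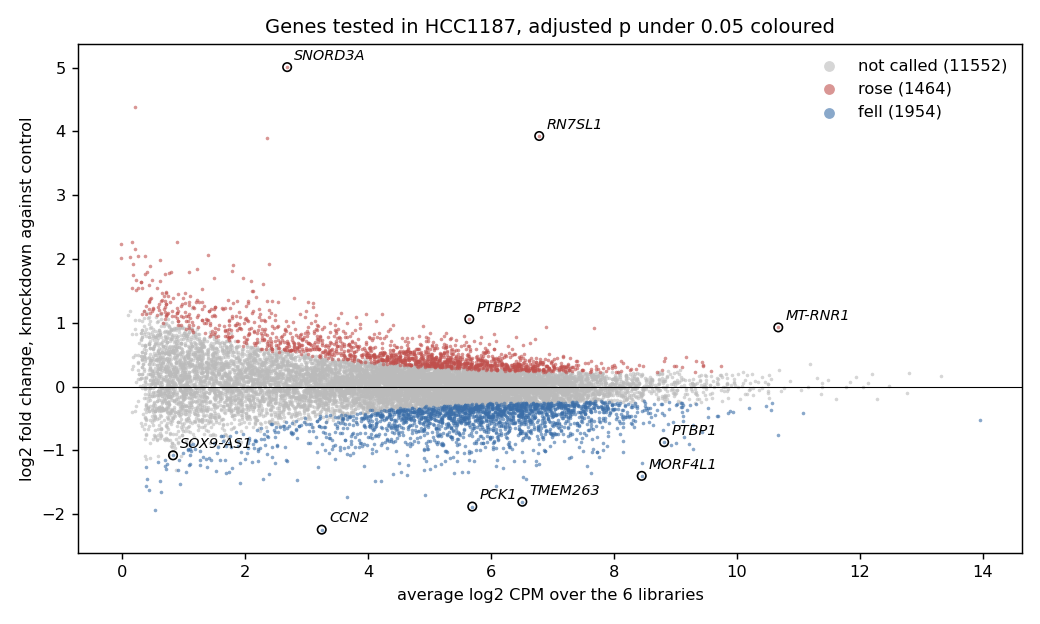
Each point is a gene tested in HCC1187, with the average log2 CPM over the 6 libraries on the x axis and the log2 fold change of knockdown against control on the y axis. Red points rose (1464), blue points fell (1954) and grey points did not pass. The falls lie mostly at high levels, and SNORD3A, RN7SL1 and RN7SL3 have log2 fold changes of 5.01, 3.93 and 3.89.

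The 12 largest falls among protein-coding genes with an average log2 CPM of at least 3 and no overlap of the groups were in genes of several functions. CCN2, a secreted matrix protein and a known target of YAP and TAZ, had 15.3, 13.8 and 15.1 CPM in S7 to S9 and 3.19, 2.62 and 3.38 CPM in S10 to S12, a 4.73-fold fall (log2 fold change −2.24 ± 0.18, adjusted p = 1.79e-08). PCK1, the enzyme that commits oxaloacetate to gluconeogenesis, had 46.02, 79.03 and 115 CPM in S7 to S9 and 13.2, 31.4 and 20.6 CPM in S10 to S12 (−1.88 ± 0.24). Its controls varied the most among the 12, and the groups did not overlap, as the rule required. TMEM263, a small membrane protein gene that overlaps MTERF2 on the other strand, had 119, 159.9 and 141 CPM in S7 to S9 and 32.7, 47.5 and 39.9 CPM in S10 to S12 (−1.81 ± 0.12). SHISA2, which retains FGF and Wnt receptors in the endoplasmic reticulum, had 131, 147 and 137 CPM in S7 to S9 and 43.4, 47.8 and 59.02 CPM in S10 to S12 (adjusted p = 2.51e-09), and its log2 fold change was −1.45 ± 0.10. CYFIP1, a subunit of the WAVE complex that links RAC1 to actin branching, had 128, 131 and 139 CPM in S7 to S9 and 48.1, 49.01 and 52.2 CPM in S10 to S12, with a log2 fold change of −1.41 ± 0.09 and an adjusted p of 4.64e-10. MORF4L1, a chromodomain protein of histone acetyltransferase complexes, was the most abundant of the 12 largest falls. It had 502, 508 and 509 CPM in S7 to S9 and 168, 210.1 and 197 CPM in S10 to S12 (−1.40 ± 0.09). The rest of the 12 were PKIB (−1.72 ± 0.17), an inhibitor of protein kinase A, SCD5 (−1.69 ± 0.12), a fatty acid desaturase, EXTL3 (−1.56 ± 0.10), an initiator of heparan sulfate chains, TAF13 (−1.48 ± 0.15), a TFIID subunit, MYADM (−1.48 ± 0.14), a membrane raft protein, and TMEM64 (−1.39 ± 0.13), a membrane protein. In all 12, each knockdown library was below each control, as the rule required.

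The 12 largest rises by the same rule were smaller than the 12 largest falls. AKAP3, an anchor of protein kinase A known from sperm, had 5.34, 5.17 and 4.29 CPM in S7 to S9 and 14.99, 11.7 and 10.5 CPM in S10 to S12 (2.48-fold, log2 fold change 1.31 ± 0.19, adjusted p = 2.46e-05). CARF, a calcium-responsive transcription factor that overlaps WDR12 on the other strand, rose by 1.25 ± 0.21, and PNPLA4, a lipase of retinyl esters and triglycerides, by 1.16 ± 0.17. MST1, a hepatocyte growth factor-like ligand, had 8.65, 8.90 and 11.6 CPM in S7 to S9 and 19.5, 20.2 and 24.2 CPM in S10 to S12 (1.14 ± 0.15). PTBP2, the neural relative of the splicing repressor PTBP1, was the most abundant of the 12, with 31.5, 34.9 and 31.5 CPM in S7 to S9 and 68.4, 67.2 and 68.00 CPM in S10 to S12. Its log2 fold change was 1.06 ± 0.10 (adjusted p = 8.36e-08), and the 3 knockdown libraries lay within 2 CPM of each other. EEF2KMT, a methyltransferase of elongation factor 2, had 11.9, 10.9 and 11.7 CPM in the controls and 29.2, 20.5 and 21.3 CPM in the knockdown, and S10 was the highest. The others were RWDD2B (1.14 ± 0.13), LRRC23 (1.02 ± 0.18) and CFAP70 (1.00 ± 0.17), both proteins of the motile cilium, LMF1 (1.00 ± 0.19), a lipase maturation factor, KRCC1 (1.00 ± 0.16) and SMIM19 (0.98 ± 0.14).

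**Figure D2:**
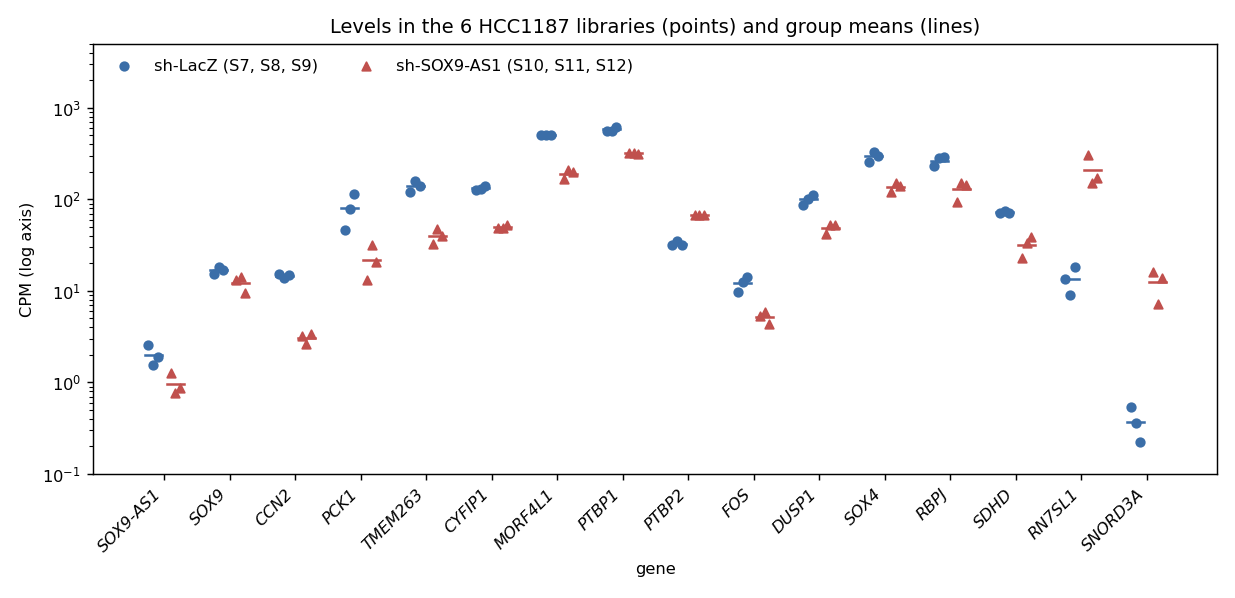
Levels of 16 genes in CPM on a log axis, with 1 point per library (blue circles S7 to S9, red triangles S10 to S12) and a short line at each group mean. The groups do not overlap in any of the 16, which the rule that chose several of them required. CCN2 and PCK1 are among the genes that are lower in the knockdown, and PTBP2, RN7SL1 and SNORD3A are higher.

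The genes that fell had long 3′ UTRs. Among 12823 protein-coding genes with an annotated 3′ UTR (GENCODE v29, longest per gene), 14.6% fell and 9.32% rose. The median 3′ UTR was 2663.5 bases in the genes that fell, 979 bases in those that rose and 1402 bases in all. Of genes with a 3′ UTR under 500 bases 4.14% fell, and the share increased with each class of length to 32.1% at 4000 bases and over. The median GC content of the 3′ UTR was 36.8% in genes that fell and 47.9% in genes that rose. Length, GC content, expression level and gene length move together, and they were not separated here.

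A short sequence in the 3′ UTR also went with the falls. All 16384 words of 7 bases were ranked by the change of the genes that carry them, and 2 overlapping words, TCCGTAA and CCGTAAA, were picked from that ranking. Among the 3282 words found in 150 to 400 of the 3′ UTRs, a range chosen after the words were known, they rank 1 and 2 by median log2 fold change. Because they were picked by their result, their values are a description with no test. TCCGTAA was in 258 3′ UTRs (median −0.29) and CCGTAAA in 264 (median −0.28). The words at ranks 3, 4 and 5 were ACCGTAA (−0.20), TTGATCG (−0.19) and ATATCGA (−0.19). TTGATCG and ATATCGA do not hold CCGTAA. At least 1 of the words was in 433 genes, 3.38% of all, of which 198 (45.7%) fell and 13 rose, with a median of −0.27. In the 12390 genes with neither, 13.5% fell and the median was 0.01. The 84 genes with the full 8 bases, TCCGTAAA, had a median of −0.36, and 57.1% of them fell. The 384 genes with the inner 6 bases alone, CCGTAA, had a median of −0.11, with 27.3% falls. Their median 3′ UTR was 3190.5 bases, against 1353 bases in the genes with neither word. Genes with neither word and 2000 to under 4000 bases had a median of −0.07 and 19.0% falls. Those of 4000 bases and over had a median of −0.16 and 30.8% falls. The 8-base and 6-base groups were not split by length. The reverse complements TTACGGA and TTTACGG, in 342 genes with neither word, went with a median of −0.07 and 21.3% falls.

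The carriers had long 3′ UTRs themselves (median 3366 bases), so the share that fell was taken within classes of length. It was 41.7% of the 12 carriers with under 500 bases, where 3.97% of other genes fell. It was 40.7% against 7.33% from 500 to under 1000 bases, 55.0% against 12.2% from 1000 to under 2000, 43.3% against 19.0% from 2000 to under 4000, and 44.5% against 30.8% at 4000 and over. In each class the share was higher among the carriers. The words were picked on the fold changes of these same libraries, so this excess is a description with no test. Against the mean of the controls, the median of the carriers was −0.34 in S10, −0.22 in S11 and −0.23 in S12. These 3 knockdown libraries were themselves used in picking the words. Of the 114 protein-coding genes with a 3′ UTR that fell at least 2-fold, 19 (16.7%) held a word, against 1.35% of the 74 that rose at least 2-fold. Of all genes that fell 10.6% held a word, and of all that rose 1.09%. In MDA-MB-468 the median of 381 tested carriers was −0.05 with all 6 libraries and −0.04 without S4, and in genes with neither word −0.01 in both. CCN2, the carrier with the largest fall in HCC1187, was low in MDA-MB-468 too. Its log2 fold change there was −2.06 with all 6 libraries (adjusted p = 0.207 by edgeR) and −3.66 without S4 (9.06e-07).

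**Figure D3:**
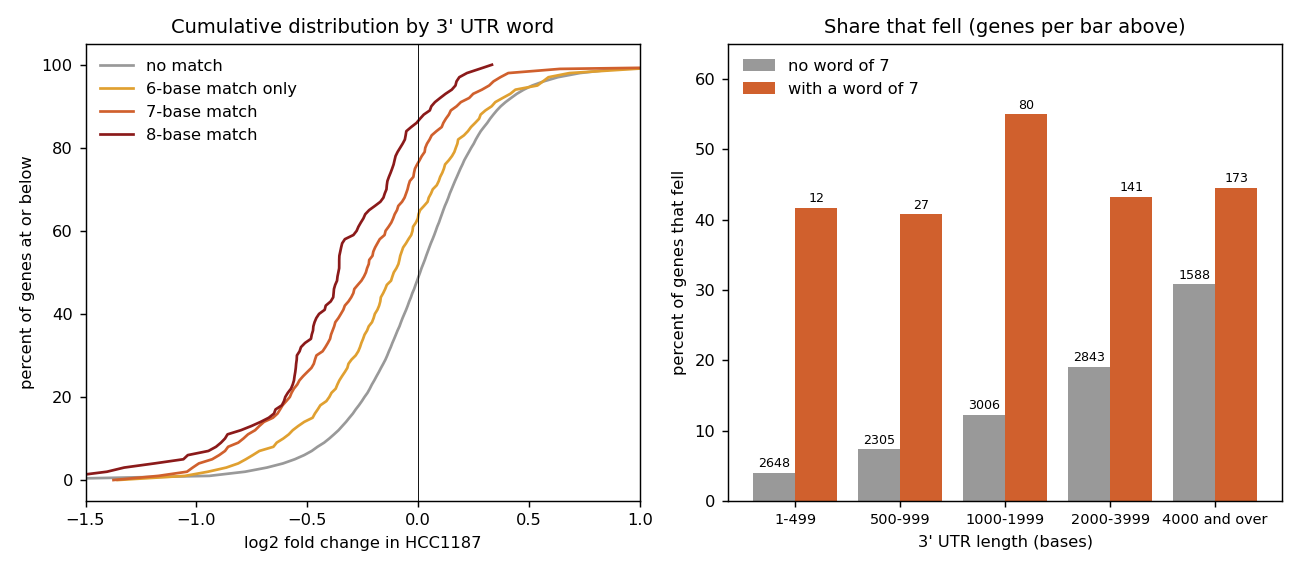
Left, cumulative percent of genes (y axis) against log2 fold change in HCC1187 (x axis). The curves are genes whose 3′ UTR holds the 8 bases TCCGTAAA, a word of 7 bases, the inner 6 bases alone or none. The word match in the legend means that these letters are present, and a match to the hairpin was not tested. The words were picked by their result in these libraries. The curves are not balanced for 3′ UTR length. The 8-base curve lies farthest to the left (median −0.36). Right, percent of genes that fell (y axis) by 3′ UTR length in bases (x axis), with the number of genes above each bar; carriers (orange) exceed the other genes (grey) in all 5 classes.

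The sites of 9 genes that carry a word and fell are shown here in 30 bases each, since they are among the largest falls or belong to gene groups described below. They were chosen with their values known. Capitals mark the word of 7 or 8 bases, and the bases come from GENCODE v29 transcripts (GRCh38).
CCN2 (chr6:131949193-131949200, minus strand): catctcattttTCCGTAAAaatgatttcag
CYFIP1, site 1 (chr15:22870006-22870012, minus strand): acgcgctgcacTCCGTAActcaacatggca
CYFIP1, site 2 (chr15:22869976-22869983, minus strand): atgcctttctcTCCGTAAActatttagtga
MORF4L1 (chr15:78897098-78897105, plus strand): atgtttggatcTCCGTAAAcacatttttgt
MICB (chr6:31511099-31511105, plus strand): cataatttataCCGTAAAtgtttactcttt
ATP1B1 (chr1:169131819-169131825, plus strand): taaattatgatTCCGTAActgacttgtagt
FNDC3A (chr13:49208742-49208749, plus strand): cacatctgttaTCCGTAAAacacctgtaac
PTBP1 (chr19:811990-811997, plus strand): aggatccccttTCCGTAAAagcgtgtaaca
RBPJ (chr4:26433561-26433567, plus strand): gatagtttcttTCCGTAAgataattgaaat
MCL1 (chr1:150576583-150576589, minus strand): actttgcaactTCCGTAAttaggaacctgt

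CCN2, CYFIP1 and MORF4L1 hold the word near the start of the 3′ UTR, at bases 64, 16 and 31, and CYFIP1 holds it a second time at base 45. MICB, a stress ligand for the NKG2D receptor of natural killer cells, had 29.05, 27.3 and 32.7 CPM in S7 to S9 and 10.7, 12.02 and 11.6 CPM in S10 to S12 (−1.37 ± 0.13, adjusted p = 1.41e-07). FNDC3A, a fibronectin type III domain protein, had 87.6, 100.7 and 92.8 CPM in S7 to S9 and 38.1, 44.1 and 36.5 CPM in S10 to S12 (−1.25 ± 0.10). ATP1B1, the beta subunit of the sodium pump, had 43.03, 44.1 and 47.2 CPM in S7 to S9 and 16.6, 17.9 and 19.8 CPM in S10 to S12 (−1.30 ± 0.11). In these 3 genes every knockdown library was below every control, and 38.4% of all genes tested had no overlap of the groups. MICB, FNDC3A and the kinase gene UHMK1 (−1.23 ± 0.13) were named as carriers that fell and not by the rule for the other genes. SOX9-AS1 also holds the words, at 2 sites in exons, and 8 of its 19 annotated transcripts include at least 1 of them. Neither site holds the full 8 bases. The transcripts are up to 3032 bases long, and how often other transcripts of such length hold a word was not tested. The 2 sites are given here.
SOX9-AS1, site 1 (chr17:72071144-72071150, minus strand): gtctctttttcCCGTAAAgtggctgaaatc
SOX9-AS1, site 2 (chr17:72084001-72084007, minus strand): gaggcatggtaTCCGTAAcatcccccaaag
The sequence of the hairpin was not analysed here, and whether it matches these sites was not tested.

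The gene groups below were lists of genes by function, and their counts are set beside the 13.1% of all genes that fell and the 9.78% that rose. Those shares are not matched for level or length. From the lowest to the highest class of expression 2.91% to 23.4% of genes fell, and by 3′ UTR length 4.14% to 32.1%. The part of level and 3′ UTR length in the counts of the lists was not tested. In the plot of called members per list, 23 of the 61 lists are drawn, chosen with their values known.

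**Figure D4:**
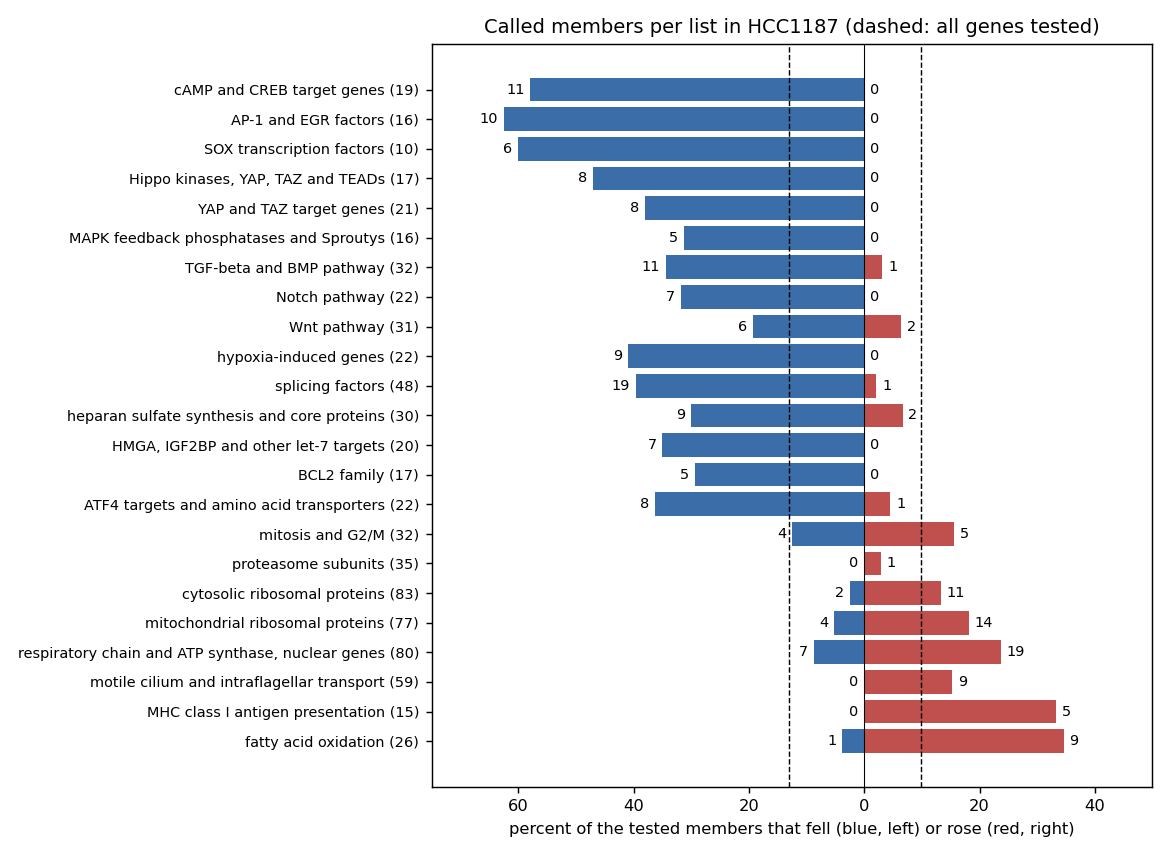
For each of 23 gene lists (number of tested members in brackets), the percent of tested members that fell (blue, to the left) or rose (red, to the right), with the number of genes at each bar. Dashed lines mark the share of all 14970 genes tested, 13.1% falls and 9.78% rises; AP-1 and EGR factors (10 of 16) reach furthest to the left and fatty acid oxidation (9 of 26) furthest to the right.

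Falls were found among genes that cyclic AMP induces through CREB and among the immediate-early transcription factors. Of 19 tested cAMP and CREB targets 11 fell and 0 rose (median −0.44), and of 16 AP-1 and EGR factors 10 fell and 0 rose (median −0.38). FOS, FOSB, JUNB, ATF3 and IER2 are in both lists. FOS, a partner of JUN in AP-1, had 9.82, 12.4 and 14.3 CPM in S7 to S9 and 5.26, 5.86 and 4.35 CPM in S10 to S12 (−1.26 ± 0.19, adjusted p = 4.99e-05). DUSP1, a phosphatase that switches off MAP kinases, had 87.9, 102 and 112 CPM in S7 to S9 and 41.9, 53.02 and 52.2 CPM in S10 to S12 (−1.03 ± 0.11). KLF4, a zinc finger factor of epithelial differentiation, had 27.02, 26.1 and 32.3 CPM in S7 to S9 and 11.5, 15.6 and 14.97 CPM in S10 to S12, a fall of 1.01 ± 0.14 on the log2 scale. The groups did not overlap for these 3 genes, as held for 38.4% of all genes tested. ATF3, a stress-induced factor, fell by 0.72 ± 0.15 (adjusted p = 0.0633 with DESeq2), BTG2, an antiproliferative gene, by 0.65 ± 0.09, NR4A1, an orphan nuclear receptor, by 0.60 ± 0.14 and IER3, an early response gene, by 0.71 ± 0.13. JUN, the most abundant of the factors, had 583, 622 and 665 CPM in S7 to S9 and 479.9, 516 and 430.2 CPM in S10 to S12 (−0.39 ± 0.09). For JUNB (−0.61 ± 0.16) the knockdown library S10 overlapped a control. FOSB (−0.16), IER2 (−0.18) and SIK1 (0.33) did not pass. With all 12 libraries in the fit, 6 of the cAMP list and 5 of the AP-1 list fell, and without S9, 6 of the AP-1 list.

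Protein kinase A, which cyclic AMP activates, changed in a few parts. Of 16 subunits, inhibitors and anchors, counted with CREB1, 3 fell and 1 rose. AKAP3, the anchor with the rise given above, is not on this list. PKIB, the inhibitor, had 16.9, 20.7 and 17.8 CPM in S7 to S9 and 4.15, 5.70 and 6.47 CPM in S10 to S12 (adjusted p = 2.44e-07). PRKAR2A, a regulatory subunit, had 132, 135 and 138 CPM in the controls and 91.04, 103 and 95.4 CPM in the knockdown (−0.48 ± 0.09), and PRKACB, a catalytic subunit, had 15.5, 12.6 and 9.36 CPM and 22.6, 20.5 and 20.5 CPM (0.76 ± 0.16). The regulatory subunit was lower and the catalytic subunit higher in each knockdown library, and 38.4% of all genes tested had no overlap of the groups. CREB1, the factor that the kinase phosphorylates, fell by 0.36 ± 0.11, a call that was lost without S8 (adjusted p = 0.134) and without S12 (0.0734). PRKACA (0.18) and PRKAR1A (−0.19) did not pass.

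The promoters of DUSP1 and FOS are shown because both genes fell and each holds letters of the CREB site. They come from RefSeq (GRCh38.p14) and run from 250 bases before the annotated start to 50 bases after it. Capitals mark TGACGTCA, the full palindromic site, in DUSP1 and TGACG, its core, in FOS, searched on both strands.
DUSP1 (chr5:172771146-172771445, minus strand): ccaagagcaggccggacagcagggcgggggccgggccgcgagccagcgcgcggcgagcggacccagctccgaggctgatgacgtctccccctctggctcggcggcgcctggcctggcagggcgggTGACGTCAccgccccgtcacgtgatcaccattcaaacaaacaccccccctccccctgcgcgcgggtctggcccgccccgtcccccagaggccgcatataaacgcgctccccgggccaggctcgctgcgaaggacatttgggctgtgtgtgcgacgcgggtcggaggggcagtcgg
FOS (chr14:75278578-75278877, plus strand): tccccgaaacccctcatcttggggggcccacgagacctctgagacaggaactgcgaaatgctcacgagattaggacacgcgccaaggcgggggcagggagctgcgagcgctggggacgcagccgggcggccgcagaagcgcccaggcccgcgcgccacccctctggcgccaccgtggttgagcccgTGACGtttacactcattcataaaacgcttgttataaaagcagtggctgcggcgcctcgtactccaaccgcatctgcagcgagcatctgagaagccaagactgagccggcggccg
Of 27305 RefSeq promoters of this length, 1.98% hold TGACGTCA and 25.01% hold TGACG, which lies within TGACGTCA. Of the genes that fell, 10 of the 11 on the cAMP list and 9 of the 10 on the AP-1 list had a promoter entry. TGACGTCA was in 1 of 17 promoters of the cAMP list, that of DUSP1, and in 1 of 13 of the AP-1 list, that of JUND. TGACG was in 10 of the 17, 5 of them among the 10 genes that fell, and in 10 of the 13, 8 of them among the 9 that fell. The AP-1 site itself (TGAGTCA or TGACTCA) was in 4.92% of all promoters and in 1 of those 13. Several motifs were tried on these lists, and a match is a description of the letters in this window.

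The Hippo pathway restrains the coactivators YAP and TAZ, which act with TEAD factors on genes of growth and adhesion. Of 17 tested genes of the pathway, 8 fell and 0 rose (median −0.27), and of 21 target genes 8 fell and 0 rose (median −0.36). YAP1 had 136, 150.5 and 138 CPM in S7 to S9 and 86.6, 92.6 and 98.1 CPM in S10 to S12 (−0.61 ± 0.09, adjusted p = 2.82e-05). MOB1B, an activator of the LATS kinases, had 43.7, 59.9 and 45.6 CPM in S7 to S9 and 13.4, 29.6 and 21.3 CPM in S10 to S12 (−1.21 ± 0.17), with S10 the lowest. LATS1, the kinase that inhibits YAP, fell by 0.55 ± 0.11, and AMOTL1, a scaffold that holds YAP at junctions, by 0.49 ± 0.09. The coactivator and its inhibitors were thus lower in the same libraries. TAZ (WWTR1, −0.27), LATS2 (0.10) and TEAD2 to TEAD4 did not pass. Among the targets, CCN1, a matrix protein related to CCN2, had 45.2, 53.4 and 55.4 CPM in S7 to S9 and 26.3, 34.2 and 28.3 CPM in S10 to S12 (−0.80 ± 0.12). AMOTL2 fell by 0.77 ± 0.12, PTPN14, a phosphatase that binds YAP, by 0.59 ± 0.09 and AJUBA, a LIM protein, by 0.47 ± 0.11. ANKRD1 (0.09), AXL (−0.37) and F3 (−0.06) did not pass. CCN2 is the carrier of a 3′ UTR word among the 21 targets. With all 12 libraries in the fit, 3 of the pathway and 3 of the targets fell, and without S8, 5 of the pathway.

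The promoter of CCN2 is shown because it holds 3 copies of GGAATG, the core letters bound by TEAD factors. It comes from RefSeq (GRCh38.p14), and capitals mark the copies.
CCN2 (chr6:131951323-131951622, minus strand): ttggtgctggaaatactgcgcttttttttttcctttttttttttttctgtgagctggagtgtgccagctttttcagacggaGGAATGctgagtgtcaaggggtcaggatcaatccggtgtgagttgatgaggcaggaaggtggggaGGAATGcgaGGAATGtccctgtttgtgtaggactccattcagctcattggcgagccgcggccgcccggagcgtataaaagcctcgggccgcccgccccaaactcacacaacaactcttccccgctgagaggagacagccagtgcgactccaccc
GGAATG, searched on both strands, was in 14.0% of all promoters, in 6 of the 15 promoters found for the 21 targets and in 2 of the 5 found for the 8 targets that fell, PTPN14 and CCN2.

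Feedback inhibitors of MAP kinase signalling were lower in part. Of 16 tested phosphatases and Sprouty-type inhibitors 5 fell and 0 rose (median −0.23). DUSP6, the phosphatase of ERK, had 5.34, 4.93 and 7.22 CPM in S7 to S9 and 2.55, 3.54 and 2.90 CPM in S10 to S12 (−0.96 ± 0.23, adjusted p = 0.00486). SPRY4 had 2.99, 3.49 and 2.93 CPM in S7 to S9 and 0.797, 1.54 and 1.74 CPM in S10 to S12 (−1.13 ± 0.31). These are low levels, and in both genes the groups did not overlap, as held for 38.4% of all genes tested. SPRY1 (−0.63 ± 0.16) was lost without S9 (adjusted p = 0.0639), and SPRED1 (−0.51 ± 0.15) without S9 (0.0614) and without S12 (0.0971). Without S9, 3 of the 16 fell, as with all 12 libraries. EGFR, the receptor upstream, did not pass (0.03), while the ligand HBEGF (−0.73) and the receptor ERBB3 (−0.49) fell.

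In the Notch pathway, in which a cleaved receptor joins RBPJ to switch on HEY and HES genes, 7 of 22 tested genes fell and 0 rose (median −0.15). RBPJ, the DNA-binding factor, had 231, 280.3 and 287 CPM in S7 to S9 and 94.1, 152 and 144 CPM in S10 to S12 (−1.03 ± 0.13, adjusted p = 3.77e-06), and it carries a 3′ UTR word. NOTCH2, the most abundant gene of the list, had 278, 272 and 268 CPM in S7 to S9 and 183, 195 and 184 CPM in S10 to S12 (−0.54 ± 0.08). JAG1, a ligand, had 60.8, 66.3 and 72.3 CPM in S7 to S9 and 33.00, 44.2 and 43.5 CPM in S10 to S12 (−0.72 ± 0.11). The receptor, ligand and factor were each lower in every knockdown library, and 38.4% of all genes tested had no overlap of the groups. Of the target genes, HEY2 had 18.9, 18.9 and 17.6 CPM in S7 to S9 and 8.77, 11.1 and 10.1 CPM in S10 to S12 (−0.88 ± 0.14) and HEY1 fell by 0.54 ± 0.10. HES1 (−0.15) and HES4 (−0.14), also targets, did not pass, nor did NOTCH3 (−0.04) or JAG2 (0.05).

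TGF-beta and BMP ligands act through paired receptors and SMAD factors, and ID genes are their classic targets. Of 32 tested genes 11 fell and 1 rose (median −0.30; 7 fell with all 12 libraries). TGFBR1, the signalling receptor of TGF-beta, had 71.5, 81.9 and 72.4 CPM in S7 to S9 and 33.8, 44.2 and 43.7 CPM in S10 to S12 (−0.88 ± 0.11, adjusted p = 3.77e-06). The coreceptor TGFBR3 fell by 0.69 ± 0.11, SMAD5, which BMP receptors activate, by 0.56 ± 0.10 and SKIL, a repressor of SMADs, by 0.85 ± 0.15. ID4, an inhibitor of bHLH factors, had 111, 122 and 109 CPM in S7 to S9 and 46.7, 50.9 and 53.7 CPM in S10 to S12 (−1.17 ± 0.09, adjusted p = 1.22e-08). ID1 had 25.7, 25.7 and 25.2 CPM in S7 to S9 and 15.9, 10.9 and 12.8 CPM in S10 to S12 (−0.96 ± 0.14). All 4 ID genes fell, since ID2 (−0.47) and ID3 (−0.32) also passed. TGFBR2 (0.29), SMAD2 (−0.23), SMAD3 (−0.20) and SMAD7 (−0.33) did not pass.

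The Wnt pathway was mixed. Of 31 tested genes 6 fell and 2 rose, and the median was −0.05. FZD3, a Wnt receptor, had 46.2, 65.6 and 52.7 CPM in S7 to S9 and 26.8, 34.5 and 31.4 CPM in S10 to S12 (−0.82 ± 0.13), whereas the receptor FZD6 had 31.5, 32.1 and 30.6 CPM in S7 to S9 and 49.3, 47.01 and 43.3 CPM in S10 to S12 (0.56 ± 0.10). The 2 receptors moved in opposite directions, each with no overlap of the groups, as held for 38.4% of all genes tested. The coreceptor LRP6 fell by 0.48 ± 0.09, LGR4, a receptor for R-spondins, by 0.58 ± 0.11 and MYC, a growth factor-responsive oncogene listed as a target, by 0.47 ± 0.11. CTNNB1 (0.01), the central coactivator, and its target AXIN2 (−0.07) did not pass. With all 12 libraries in the fit, 3 of the 31 fell.

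Several genes of the actin cortex and of cell adhesion fell. RAC1 and its relatives switch on the WAVE and Arp2/3 complexes that branch actin at the cell edge. RAC1 had 223, 228 and 245 CPM in S7 to S9 and 142, 174 and 168 CPM in S10 to S12 (−0.52 ± 0.09, adjusted p = 0.000191). RHOC, a GTPase linked to cell motility, had 60.5, 62.8 and 63.6 CPM in S7 to S9 and 44.3, 43.00 and 42.99 CPM in S10 to S12 (−0.52 ± 0.09). EZR, the ezrin that ties membrane to actin, had 266, 259 and 277 CPM in S7 to S9 and 130.1, 149 and 129.9 CPM in S10 to S12 (−0.97 ± 0.09). None of the 3 overlapped between groups, as held for 38.4% of all genes tested. ABI2, a WAVE subunit and word carrier, fell by 0.48 ± 0.10, and RND3, a GTPase that loosens the actin cortex, by 0.60 ± 0.12. Other WAVE subunits, CYFIP2 (0.06), NCKAP1 (0.05) and BRK1 (−0.08), did not pass, nor did ACTR3 (0.15). AHNAK, a large scaffold under the membrane, had 475, 479.7 and 515 CPM in S7 to S9 and 191, 238 and 211 CPM in S10 to S12 (−1.20 ± 0.09, adjusted p = 4.74e-09). Of 18 integrin and hemidesmosome genes 4 fell and 0 rose, among them the laminin receptor subunit ITGA6 (−0.58 ± 0.10) and its partner ITGB1 (−0.45 ± 0.09).

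Enzymes and core proteins of heparan sulfate, the sulfated sugar chain that holds growth factors at the cell surface, mostly did not pass. Of 30 tested, 9 fell and 2 rose (5 falls with all 12 libraries). EXTL3 had 92.5, 97.4 and 108 CPM in S7 to S9 and 30.6, 34.8 and 35.2 CPM in S10 to S12 (adjusted p = 4.64e-10). EXT2, a subunit of the chain polymerase and a word carrier, fell by 0.38 ± 0.09, and its partner EXT1 did not pass (−0.23). HS2ST1, a sulfotransferase, fell by 0.72 ± 0.11, and the core proteins GPC6 and SDC4 by 0.73 ± 0.11 and 0.48 ± 0.12. Among 24 matrix proteases and inhibitors, 7 fell and 3 rose (3 falls with all 12 libraries). ADAMTS1, a protease of proteoglycans, had 509, 573 and 704 CPM in S7 to S9 and 198, 296 and 280.1 CPM in S10 to S12 (−1.20 ± 0.12). TIMP3, an inhibitor of metalloproteases, had 83.2, 92.4 and 80.5 CPM in S7 to S9 and 40.5, 47.8 and 42.4 CPM in S10 to S12 (−0.97 ± 0.10), and TIMP2 fell by 0.40 ± 0.09. A protease and its inhibitors thus fell in the same libraries, while MMP11 (0.37), ADAM12 (0.47) and the lysosomal protease CTSL (0.46) rose.

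Many splicing factors fell. Of 48 tested members of the SRSF, HNRNP, PTBP, MBNL and related families, 19 fell and 1 rose (median −0.12), and 11 fell without S8 and 10 with all 12 libraries. PTBP1, a repressor of neuronal exons, had 559.6, 561 and 625 CPM in S7 to S9 and 320.0, 323 and 311 CPM in S10 to S12 (−0.87 ± 0.08, adjusted p = 1.2e-07), and it carries the 8-base word. PTBP2, whose messenger RNA is kept low by PTBP1 in non-neuronal cells, was the 1 rise. The pair moved in opposite directions in each knockdown library, and 38.4% of all genes tested had no overlap of the groups. HNRNPA0, an RNA-binding protein of AU-rich messages, had 205, 210.4 and 225 CPM in S7 to S9 and 103, 96.2 and 98.2 CPM in S10 to S12 (−1.11 ± 0.08, adjusted p = 5.99e-09). SRSF1 (−0.74 ± 0.10), MBNL1 (−0.66 ± 0.09) and MBNL2 (−0.90 ± 0.15) also fell. Among 14 tested neuronal genes 6 fell and 1 rose (3 falls with all 12 libraries), so the list leaned to falls. NEFM, a neurofilament subunit, had 231, 236 and 258 CPM in S7 to S9 and 109.9, 139 and 111 CPM in S10 to S12 (−1.01 ± 0.10), SNAP25, a protein of synaptic vesicle fusion, fell by 1.15 ± 0.22 and SYT1 rose (0.62).

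Some regulators of survival and of the cell cycle fell. Of 17 tested BCL2 family genes, 5 fell and 0 rose, with 3 falls without S8 and 3 with all 12 libraries. The falls include protectors of the cell, MCL1 (−0.56 ± 0.09), BCL2L1 (−0.61 ± 0.12) and BCL2 (−0.48 ± 0.13), and the death-promoting PMAIP1, which had 212, 262 and 234 CPM in S7 to S9 and 125, 154 and 159.8 CPM in S10 to S12 (−0.69 ± 0.10). BCL2 was lost without S8 (adjusted p = 0.0619). BAX (0.01) and BAK1 (−0.06), which open mitochondria, did not pass. CDKN2A, which encodes the inhibitors p16 and ARF, had 72.5, 74.2 and 78.8 CPM in S7 to S9 and 47.7, 38.7 and 37.1 CPM in S10 to S12 (−0.88 ± 0.10). The kinase CDK6 had 165, 189 and 153 CPM in S7 to S9 and 84.7, 114 and 103 CPM in S10 to S12 (−0.74 ± 0.10), and MDM2, a ubiquitin ligase, fell by 0.56 ± 0.09. CDKN2A, MDM2 and MCL1 carry a 3′ UTR word. CDKN1A (0.20), an inhibitor of cyclin-dependent kinases, did not pass. Of 32 mitosis genes 5 rose and 4 fell, and of 38 genes of DNA replication 3 rose and 4 fell, close to the shares of all genes. The mitosis counts ranged from 1 to 10 rises and 2 to 4 falls over 13 alternative fits, the 10 rises with library totals as the only scaling and the 1 rise without S8 or with all 12 libraries. CDKN3, a phosphatase of CDKs outside those lists, had 44.3, 43.3 and 41.7 CPM in S7 to S9 and 59.8, 66.1 and 67.6 CPM in S10 to S12 (0.58 ± 0.10).

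LIN28B blocks maturation of let-7 microRNAs, which otherwise hold down HMGA2 among others. LIN28B had 144, 169 and 147 CPM in S7 to S9 and 57.6, 71.2 and 68.3 CPM in S10 to S12 (−1.22 ± 0.10, adjusted p = 1.31e-08). Of 20 tested members of the list of let-7 targets and their regulators, 7 fell and 0 rose, but the median was −0.06. HMGA2, a chromatin protein of embryonic cells, had 70.4, 79.9 and 63.4 CPM in S7 to S9 and 42.7, 51.8 and 52.1 CPM in S10 to S12 (−0.54 ± 0.11), and NRAS, a GTPase of growth factor signalling, fell by 0.59 ± 0.11. HMGA1 (0.10), IGF2BP1 (0.16), IGF2BP3 (−0.16) and CCND2 (0.15) did not pass. Of the 19 tested genes of microRNA and hairpin processing 2 rose and 2 fell, with AGO2 (0.19) and DROSHA (−0.11) not passing, DICER1 falling (−0.30) and LIN28B the other fall. Without S11, 6 of the 19 fell.

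Several genes of glucose metabolism and of the response to hypoxia fell. Of 23 tested genes of glycolysis 7 fell and 0 rose (4 with all 12 libraries), and of 22 hypoxia-induced genes 9 fell and 0 rose (median −0.27, 4 with all 12). LDHA, which makes lactate, had 1936, 1984 and 2187 CPM in S7 to S9 and 987, 1309 and 1314 CPM in S10 to S12 (−0.76 ± 0.10, adjusted p = 1.37e-05). PFKFB3, which makes the activator of phosphofructokinase, had 144, 152 and 189 CPM in S7 to S9 and 91.7, 103 and 91.7 CPM in S10 to S12 (−0.77 ± 0.10). Other steps of the same pathway did not pass, among them HK2 (−0.05), PFKP (0.00), GAPDH (−0.20) and PKM (−0.08). HIF1A (−0.07) and the hypoxia targets VEGFA (−0.23) and BNIP3 (−0.15) did not pass. INSIG2, which holds the sterol sensor SCAP in the endoplasmic reticulum and is listed with hypoxia genes too, had 58.5, 60.4 and 60.2 CPM in S7 to S9 and 22.2, 26.7 and 29.8 CPM in S10 to S12 (−1.17 ± 0.11). Among 29 genes of cholesterol synthesis and its control, 8 fell and 3 rose, and 1 fell with all 12 libraries. MSMO1, a sterol oxidase, had 79.1, 109.7 and 122.5 CPM in S7 to S9 and 36.2, 56.3 and 67.04 CPM in S10 to S12 (−0.95 ± 0.16), while SREBF2 (−0.14), the sterol-responsive factor, did not pass.

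Genes of fatty acid oxidation leaned the other way. Of 26 tested, 9 rose and 1 fell (median 0.19, 4 rises with all 12 libraries). CPT1C, a brain-type relative of the carnitine transferase that admits fatty acids to mitochondria, had 7.90, 8.06 and 10.3 CPM in S7 to S9 and 16.3, 15.9 and 14.97 CPM in S10 to S12 (0.84 ± 0.15, adjusted p = 0.000396). EHHADH, an enzyme of peroxisomal oxidation, had 13.9, 12.5 and 11.8 CPM in the controls and 18.8, 22.3 and 17.5 CPM in the knockdown (0.60 ± 0.14). ACADS, the short-chain acyl-CoA dehydrogenase, rose by 0.53 ± 0.13. All 3 were higher in every knockdown library, and 38.4% of all genes tested had no overlap of the groups. CPT1A (0.19), the liver-type transferase, did not pass, and HADHA fell (−0.25). Desaturases and synthesis genes were mostly not called, with 3 falls and 1 rise of 24, and SCD (−0.24) and FASN (0.10) did not pass beside the fall of SCD5. Leaving out S11 gave 6 falls.

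Nuclear genes of the respiratory chain were split. Of 80 tested, 19 rose and 7 fell (median 0.13). With library totals as the only scaling 30 rose, without S7 9, without S8 7, without S12 12 and with all 12 libraries 7. SDHD, the membrane anchor of complex II, had 71.01, 74.9 and 70.4 CPM in S7 to S9 and 22.96, 33.4 and 38.9 CPM in S10 to S12 (−1.16 ± 0.13, adjusted p = 1.04e-06), and it overlaps TIMM8B on the other strand. SDHA (0.01), SDHB (0.19) and SDHC (−0.10), the other subunits of that complex, did not pass. NDUFB3, of complex I, had 35.5, 33.4 and 28.3 CPM in S7 to S9 and 52.3, 56.1 and 53.3 CPM in S10 to S12 (0.73 ± 0.11), and COX4I1, of complex IV, had 209.6, 205 and 213 CPM in S7 to S9 and 149.9, 143 and 148 CPM in S10 to S12 (−0.51 ± 0.08). NDUFC2 (−0.84 ± 0.20) also fell, with 9.57, 9.09 and 20.8 CPM in S10, S11 and S12 beside 24.9, 25.4 and 23.9 CPM in the controls. S12 was close to the controls, and the fall did not pass with DESeq2 (adjusted p = 0.083). Mitochondrial ribosomal proteins had 14 rises and 4 falls of 77, among them MRPS33 (0.53 ± 0.10) and MRPL20 (0.52 ± 0.11), and cytosolic ones 11 rises and 2 falls of 83. Those rises became 23 and 26 with library totals, 7 and 5 without S8, and 7 and 5 with all 12 libraries.

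Of 49 translation factors and EIF2AK kinases, 6 fell and 5 rose. EIF3A, the largest subunit of the initiation factor that binds the small ribosome, had 649.7, 664 and 685 CPM in S7 to S9 and 334, 403 and 345 CPM in S10 to S12 (−0.89 ± 0.09, adjusted p = 1.99e-07). Stress pathways of the endoplasmic reticulum and of amino acid supply leaned to falls, with 8 falls and 1 rise of 22 in each list. ATF6, a membrane-bound sensor, had 93.2, 103 and 90.2 CPM in S7 to S9 and 55.8, 65.97 and 56.7 CPM in S10 to S12 (−0.68 ± 0.10), and EIF2AK3, the kinase PERK, fell by 0.65 ± 0.11. HSP90B1 (−0.18) and CALR (0.22), abundant chaperones of that compartment, did not pass. SLC7A11, the cystine transporter, had 15.6, 15.04 and 11.2 CPM in S7 to S9 and 7.33, 7.09 and 7.63 CPM in S10 to S12 (−0.92 ± 0.17). SLC38A2, a carrier of small amino acids, fell by 0.58 ± 0.11 and DDIT4, an inhibitor of mTORC1, by 0.70 ± 0.11, while ATF4 itself (0.01) did not pass. The falls of the endoplasmic reticulum list were 5 without S8 and 5 with all 12 libraries, and those of the ATF4 list 5 without S9 and 1 with all 12. Of 35 proteasome subunits 1 passed, PSMB9, a subunit of the immunoproteasome. VCP, the ATPase that pulls ubiquitinated proteins from membranes, had 136, 130.2 and 157 CPM in S7 to S9 and 276, 258 and 267 CPM in S10 to S12 (0.92 ± 0.09, adjusted p = 1.39e-07).

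Among 42 chromatin regulators 8 fell and 1 rose, with 4 falls without S8, 3 without S12, 4 with library totals and 3 with all 12 libraries. BMI1, a Polycomb protein of stem cells, had 57.7, 76.6 and 64.6 CPM in S7 to S9 and 25.99, 33.4 and 36.03 CPM in S10 to S12 (−1.04 ± 0.12), and the deacetylase HDAC2 fell by 0.40 ± 0.09. EZH2 (−0.08) did not pass. Of 26 tested histone genes 6 fell and 1 rose (3 falls with all 12 libraries). H2BC21 had 22.5, 23.8 and 24.1 CPM in S7 to S9 and 12.3, 14.8 and 10.9 CPM in S10 to S12 (−0.91 ± 0.14), H1-2 fell by 0.75 ± 0.11 and H2AC6 by 1.17 ± 0.23. Histone genes are near-identical copies, so reads may have been shared among them. Of 437 zinc finger genes named ZNF 38 rose and 37 fell, a share of rises below and of falls below that of all genes.

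Genes of motile cilia and antigen presentation had rises and no falls. Of 59 tested cilium and intraflagellar transport genes, 9 rose (5 with all 12 libraries) and the median was 0.04. The axonemal dynein heavy chain DNAH1 had 8.22, 7.10 and 8.46 CPM in S7 to S9 and 17.1, 14.5 and 13.2 CPM in S10 to S12 (0.90 ± 0.16). DNAH17 (1.23 ± 0.29) and DNAH10 (1.28 ± 0.33) had lower levels, with 5.58, 3.85 and 4.25 CPM and 3.67, 2.93 and 2.03 CPM in the knockdown libraries. Of 15 MHC class I genes 5 rose (median 0.22). NLRC5, the transactivator of MHC class I, had 10.9, 9.26 and 9.25 CPM in S7 to S9 and 20.4, 12.6 and 14.4 CPM in S10 to S12 (0.67 ± 0.17), and PSMB9 had 2.67, 3.85 and 3.61 CPM in S7 to S9 and 5.10, 6.63 and 6.57 CPM in S10 to S12 (0.87 ± 0.22). The class I heavy chains HLA-B (0.16) and HLA-C (0.22) and B2M (−0.11) did not pass.

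The largest rises of all were in short structural RNAs. SNORD3A, the U3 small nucleolar RNA of ribosomal RNA processing, had 5, 3 and 2 counts in S7 to S9 and 102, 47 and 145 counts in S10 to S12, or 0.534, 0.361 and 0.226 CPM in S7 to S9 and 16.3, 7.24 and 14.01 CPM in S10 to S12 (32.2-fold, log2 fold change 5.01 ± 0.37, adjusted p = 4.62e-09). RN7SL1, the RNA of the signal recognition particle, had 13.5, 9.14 and 18.4 CPM in S7 to S9 and 306, 152 and 171 CPM in S10 to S12 (3.93 ± 0.22), and its near-identical copy RN7SL3 had 0.748, 0.361 and 0.790 CPM in S7 to S9 and 15.1, 7.71 and 7.15 CPM in S10 to S12 (3.89 ± 0.36). In all 3 genes S10 was the highest library, and S10 also had the fewest counts in total. S12, the library with the most counts, was also above every control in all 3, as the rule that chose them required. These RNAs as a rule have no poly(A) tail, while the libraries were made from polyadenylated RNA. Reads may be shared between RN7SL1 and RN7SL3, and RN7SL1 overlaps RPS29 on the other strand. In MDA-MB-468 the log2 fold change of RN7SL1 was 3.39 with all 6 libraries and did not pass (adjusted p = 0.205 by edgeR). Without S4 it was 3.81 and passed (adjusted p = 1.2e-07 by edgeR). MT-RNR1, the small ribosomal RNA of mitochondria, had 1115, 1115 and 1147 CPM in S7 to S9 and 2180.5, 2452 and 1793 CPM in S10 to S12 (0.93 ± 0.10). Of 13 mitochondrial protein genes, made from the same genome, 0 rose and 1 fell.

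Other non-coding genes changed at low levels. The pseudogene RDM1P5 had 1.82, 1.08 and 1.24 CPM in S7 to S9 and 4.46, 4.62 and 6.38 CPM in S10 to S12 (1.91 ± 0.28), and PSMG3-AS1, an antisense RNA whose partner PSMG3 overlaps it, had 1.60, 1.08 and 1.69 CPM in S7 to S9 and 6.38, 4.32 and 4.93 CPM in S10 to S12 (1.81 ± 0.27). Both were higher in each knockdown library, as the rule that chose them required. The 5 largest falls outside protein-coding genes, among genes with a symbol other than a clone name, an average log2 CPM of at least 1 and no overlap of the groups, each lost their call in some fit. RPL17P50 (−1.22 ± 0.34) and RPL18AP3 (−1.16 ± 0.32), pseudogenes of ribosomal proteins whose reads may belong to their parent genes, were lost without S9 (adjusted p = 0.106 and 0.0865), and RPL18AP3 without S12 (0.0957). KLRA1P (−0.97 ± 0.27) was lost without S8 (adjusted p = 0.129). ZNNT1 (−1.01 ± 0.33) was lost without S8, S9, S10, S11 or S12, with adjusted p from 0.0541 without S12 to 0.158 without S9, and with DESeq2 (0.107). N4BP2L2-IT2 (−0.94 ± 0.30) was lost without S9 (0.113), S10 (0.073) and S11 (0.0708), and with DESeq2 (0.0693).

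The response in HCC1187 was set against that in MDA-MB-468 by an interaction term (line by knockdown) fitted to all 12 libraries. The difference passed for 613 of 16328 genes (3.75%), of which 411 (2.52%) were lower and 202 (1.24%) higher in HCC1187. Leaving out a knockdown library of MDA-MB-468 gave 4300 genes without S4, 164 without S5 and 238 without S6, so the number depended most on S4. CYFIP1 fell in HCC1187 and had a log2 fold change of 0.38 in MDA-MB-468, a difference of −1.78 ± 0.16 (adjusted p = 9.72e-05). For MORF4L1 the difference was −1.54 ± 0.17, and for KIF1C, a kinesin motor, −1.20 ± 0.12. KIF1C had 159, 165 and 161 CPM in S7 to S9 and 84.8, 87.1 and 82.4 CPM in S10 to S12 in HCC1187 (−0.93 ± 0.08). FOS had log2 fold changes of opposite sign, with −1.26 in HCC1187 and 1.42 in MDA-MB-468 (difference −2.67 ± 0.43, adjusted p = 0.00464). In MDA-MB-468 alone FOS did not pass with all 6 libraries (adjusted p = 0.205), and it passed without S4 (1.72, adjusted p = 1.23e-05). In the other direction PTBP2 (1.48 ± 0.19), MT-RNR1 (1.19 ± 0.18) and PCYOX1L (1.36 ± 0.21), a relative of prenylcysteine oxidase that had 24.5, 21.5 and 22.9 CPM in S7 to S9 and 39.5, 43.5 and 40.4 CPM in S10 to S12, were higher in HCC1187. C22orf46P, a pseudogene, had 50.6, 48.96 and 43.4 CPM in S7 to S9 and 94.5, 80.9 and 79.5 CPM in S10 to S12 (0.83 ± 0.10) and a difference of 1.19 ± 0.18. Of the 433 carriers of a 3′ UTR word, 59 (13.6%) were lower in HCC1187, and of the genes with neither word 2.74%, which describes words chosen on the HCC1187 libraries.

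**Figure D5:**
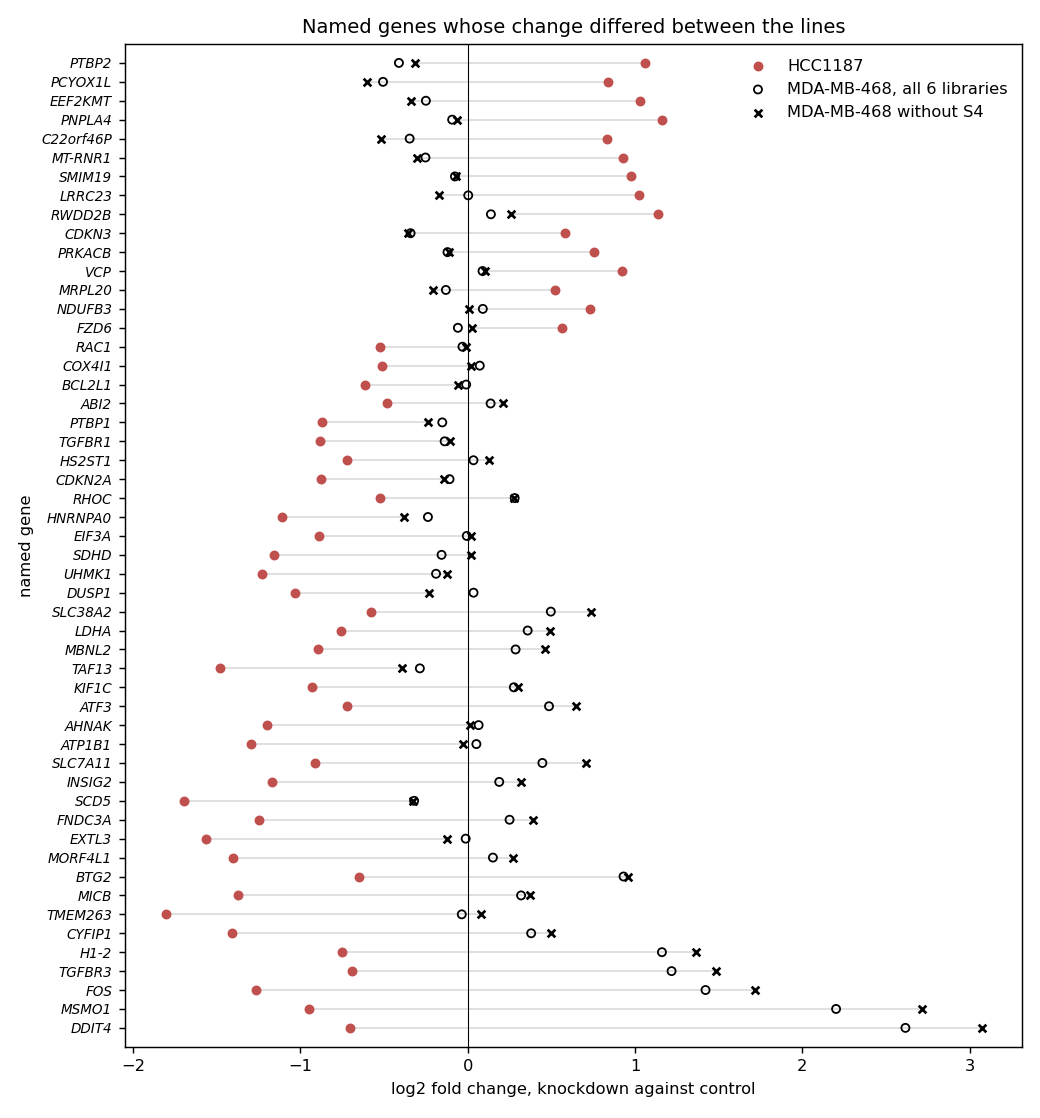
Log2 fold change of knockdown against control (x axis) for 52 named genes (y axis) whose change differed between the lines, in HCC1187 (red), in MDA-MB-468 with all 6 libraries (open circles) and in MDA-MB-468 without S4 (crosses). DDIT4, MSMO1, FOS and TGFBR3 lie on opposite sides of 0 in the lines, and SNORD3A, not tested in MDA-MB-468 alone, is not drawn.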

How the data were processed

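RNA of 12 libraries was measured by sequencing. The values are the deposited raw counts per gene that the authors made; the submitters' processing notes name the aligner HISAT2 2.1.0, the counter featureCounts 2.0.0, Trimmomatic 0.39 and SAMtools, with FastQC 0.11.9 and MultiQC 1.11 for quality. No source used here gives the strand setting. Counts came in 3 lanes per library. Lane 1 alone was used, so that no group had more columns than samples; the lanes were not summed, and 24 of 36 count columns were left unused. Genes were kept by edgeR's filterByExpr (minimum count 10, minimum total 15). They were scaled by TMM and tested with edgeR 4.0.16 (quasi-likelihood F test, Benjamini-Hochberg) in R 4.3.3. The 6 HCC1187 libraries were fitted alone, and the difference between lines was fitted on 12. CPM is the count scaled to the size of the library after TMM. Alternatives were other scalings and filters, limma 3.58.1 (voom), DESeq2 1.42.0, all 12 libraries and leaving out each library. The edgeR script was tested on simulated data.

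Named genes were SOX9-AS1 and SOX9, the 12 largest rises and falls among protein-coding genes with an average log2 CPM of at least 3 and no overlap, the 5 largest per direction of other types at 1 or more, up to 6 per list by smallest p with the members that define it, and 6 per direction for the difference between lines. From that output 153 that passed are described in full; core members that did not pass are given by log2 fold change. MICB, FNDC3A and UHMK1 were added. Members, lists, words, motifs and splits were chosen with earlier results of these data known. Gene models and 3′ UTRs are from GENCODE v29 and promoters from RefSeq. Some members of the lists are not reported here.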

Additional observations from a re-analysis of the deposited data

Results flagged for a closer look

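For 53 of the 153 genes named with values, the change on knockdown differed between HCC1187 and MDA-MB-468 by the interaction of line and knockdown (edgeR's quasi-likelihood test, adjusted p under 0.05 over 16328 genes, 3 libraries per group). Values below are the log2 fold change in HCC1187 minus that in MDA-MB-468. Across all genes 3.75% passed, but the named genes were chosen among genes that changed in HCC1187, so their share is no result. Over all genes, 4300 passed without S4, and all 613 that passed with every library were among them. Of those 613, 164 still passed without S5 and 234 without S6. These calls therefore depend on which MDA-MB-468 libraries are used.

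In 37 genes the value was lower in HCC1187. The lowest were DDIT4 (−3.32), MSMO1 (−3.15), FOS (−2.67), TGFBR3 (−1.90), H1-2 (−1.90), CYFIP1 (−1.78), TMEM263 (−1.76) and MICB (−1.68). Next came BTG2 (−1.58), MORF4L1 (−1.54), EXTL3 (−1.54), FNDC3A (−1.49), SCD5 (−1.36), INSIG2 (−1.36), SLC7A11 (−1.35) and ATP1B1 (−1.34). Smaller differences were found for AHNAK (−1.25), ATF3 (−1.21), KIF1C (−1.20), TAF13 (−1.18), MBNL2 (−1.17), LDHA (−1.11), SLC38A2 (−1.07) and DUSP1 (−1.05). Smaller differences between −1.03 and −0.74 were those of UHMK1 (−1.03), SDHD (−1.003), EIF3A (−0.87), HNRNPA0 (−0.86), RHOC (−0.79), CDKN2A (−0.75), HS2ST1 (−0.75) and TGFBR1 (−0.74). The smallest were those of PTBP1 (−0.71), ABI2 (−0.61), BCL2L1 (−0.59), COX4I1 (−0.57) and RAC1 (−0.48).

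In 16 genes the value was higher in HCC1187. The highest were SNORD3A (4.004), PTBP2 (1.48), PCYOX1L (1.36), EEF2KMT (1.29), PNPLA4 (1.27), C22orf46P (1.19), MT-RNR1 (1.19), SMIM19 (1.06) and LRRC23 (1.04). They were followed by RWDD2B (1.01), CDKN3 (0.93), PRKACB (0.89), VCP (0.84), MRPL20 (0.66), NDUFB3 (0.66) and FZD6 (0.63). MSMO1, DDIT4, FOS and TGFBR3 had positive log2 fold changes in MDA-MB-468 (2.20, 2.62, 1.42 and 1.22), none of which passed there alone with all 6 libraries. Without S4 they were 2.72, 3.07, 1.72 and 1.49, and all 4 passed (adjusted p = 7.46e-07, 2.13e-09, 1.23e-05 and 0.00116 by edgeR). SNORD3A, the small nucleolar RNA, was not tested in MDA-MB-468 alone.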

How the results depend on the processing

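The number of genes called in the HCC1187 knockdown was 1499 with all 12 libraries in the fit, 1839 at an adjusted p under 0.01, 326 with a change of at least 2-fold and 2213 to 3407 with 1 library left out, against 3418. With library totals alone 57.4% of 3637 calls were rises. The difference between the lines was called for 164 to 4300 genes with 1 MDA-MB-468 knockdown library left out and for 1170 with DESeq2, against 613. With 1 library left out the log2 fold change of SOX9-AS1 ranged from −1.28 to −0.87 and that of SOX9 from −0.62 to −0.31. SOX9 was −0.49 with DESeq2 (adjusted p = 0.0505) and −0.48 with all 12 libraries (0.0919), neither past the threshold. The cause was not tested. Of 153 named genes, 119 kept their call in all 13 alternative fits, 28 lost it with all 12 libraries and 0 changed sign. The share of 3′ UTR word carriers that fell ranged from 29.8% with all 12 libraries to 46.2% without a filter, alternatives added after the word had been seen. No paired analysis was possible because the count columns carry no replicate number that links the groups. Counting 1 lane of 3 limits low-count genes such as SOX9-AS1 most.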
